A study of Mus musculus with 12 samples.

Results

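The proteasome genes of mouse aorta were examined in 12 RNA libraries, 6 from control mice and 6 from mice fasted for 24 h. Genes were taken by symbol: every gene of the GENCODE M21 annotation whose name begins with Psma, Psmb, Psmc, Psmd, Psme, Psmf or Psmg and a digit. The rule matched 54 symbols, of which 48 genes, with 80 transcripts, were listed among 12287 genes and 22699 transcripts. Listed here were 7 subunits of the alpha ring, 7 of the constitutive beta ring, 3 immunoproteasome subunits, 6 ATPases and 11 other subunits of the 19S particle, 7 assembly chaperones, and 5 genes for activators and an inhibitor. The other 2 match by name and were not counted as subunits: Psmc3ip, a partner of the meiotic recombinases, and Psme2b, an intronless copy of Psme2. Psme2b is annotated as protein coding, and whether its product serves as a PA28 subunit was not tested. Psma8, the thymic subunit gene Psmb11 and 4 pseudogenes match the rule but are not in the table and were not analysed here. All 48 listed genes passed the filter on low values.

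The proteasome degrades proteins that carry ubiquitin chains. Its 20S core is a barrel of alpha rings around beta rings, and only Psmb5, Psmb6 and Psmb7 of the constitutive beta subunits cut peptide bonds. The 19S particle binds ubiquitin chains, removes them, and unfolds the substrate with a ring of ATPases. In cells exposed to interferon, Psmb8, Psmb9 and Psmb10 replace the cutting subunits, and the PA28 activator made of Psme1 and Psme2 can cap the core. Core assembly is guided by the Psmg chaperones and by Pomp. In skeletal muscle of fasted rodents, proteasome genes are known to rise together with the ubiquitin ligases Fbxo32 and Trim63. The comparison here gives the same genes in an artery wall that is mainly smooth muscle.

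The mice were C57BL/6, 7 weeks old, and no genetic change is named in the labels. The groups differed, as far as the labels say, in the fast alone. RNA came from whole dissected aortae with the fat taken off, and poly(A) RNA was read from both ends of strand-specific libraries. Values are FPKM, fragments counted per kilobase of a transcript and scaled by library size, which the authors deposited per transcript. They were summed per gene here. A level is given as its mean ± SD over 6 libraries, or as the lowest, median and highest library. A log2 difference is the fasted minus the control mean of log2(FPKM + 1), ± its SE from limma, and its p was adjusted over all 12063 genes tested. Whether each library stands for its own animal is not stated in the labels, and the p-values therefore rest on a spread that may be technical. In bulk tissue, fewer cells of a type and less RNA per cell cannot be told apart.

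The listed values summed to 299588 to 327492 FPKM per library, and the number of reads behind them is unknown. All 8 smooth muscle markers were listed, at 8582 to 10722 FPKM in sum in controls and 8444 to 9669 in fasted libraries, with Lmod1 higher and Cnn1 lower in the fasted group. Fibroblast markers summed to 2506 to 3234 FPKM in controls and 2391 to 2647 in fasted libraries, and 4 of 8 passed, Dcn and Pdgfra higher, Lum and Clec3b lower (Clec3b without overlap, log2 difference -0.67). Of 8 adipocyte markers 7 were listed (Lep was not), and their sum was 78.6 to 157 FPKM in controls and 187 to 451 in fasted libraries. Of those 7, 3 passed the test, all higher in the fasted group. Endothelial markers summed to 142 to 218 FPKM in controls and 198 to 277 in fasted libraries, with 2 of 8 (Pecam1 and Cldn5) higher. Macrophage markers summed to 208 to 341 FPKM in controls and 214 to 364 in fasted libraries, with Adgre1 alone of 8 passing, lower. Of 8 lymphocyte markers only Ptprc was listed, at 0 to 2.93 FPKM. The second principal component, with 12.8% of the variance, set fasted replicate 3 apart.

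Proteasome genes were abundant in the aorta, and the classes differed widely in level. FPKM is scaled to transcript length, so levels can be set side by side between genes as far as the annotated length is the one expressed. The 14 genes of the constitutive core ranged in mean level over all libraries from 23.02 FPKM for Psma3, an alpha ring subunit, to 115 FPKM for Psmb6, the caspase-like subunit. The annotated length is 2846 bases for Psma3-202, the main transcript of Psma3, and 798 for Psmb6-201. Whether the expressed transcripts have these lengths was not tested. The constitutive beta genes had a median rank at the 94.3 percentile of all listed genes, and the alpha genes one at 93.4. The 6 ATPase genes lay between 36.7 FPKM (Psmc4) and 74.2 FPKM (Psmc3). Among the other 19S genes the levels ran from 20.4 FPKM for Psmd11 to 78.5 FPKM for Psmd8. Assembly chaperones were lower, from 5.39 FPKM for Psmd5 to 15.7 FPKM for Psmg2. The immunoproteasome genes were lowest of the subunit classes, at 4.005 FPKM for Psmb8, 1.35 FPKM for Psmb9 and 4.195 FPKM for Psmb10. The 46 genes without Psmc3ip and Psme2b had a summed level of 1806 ± 103 FPKM in the control group and of 1788 ± 98.9 FPKM in the fasted group.

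**Figure D1:**
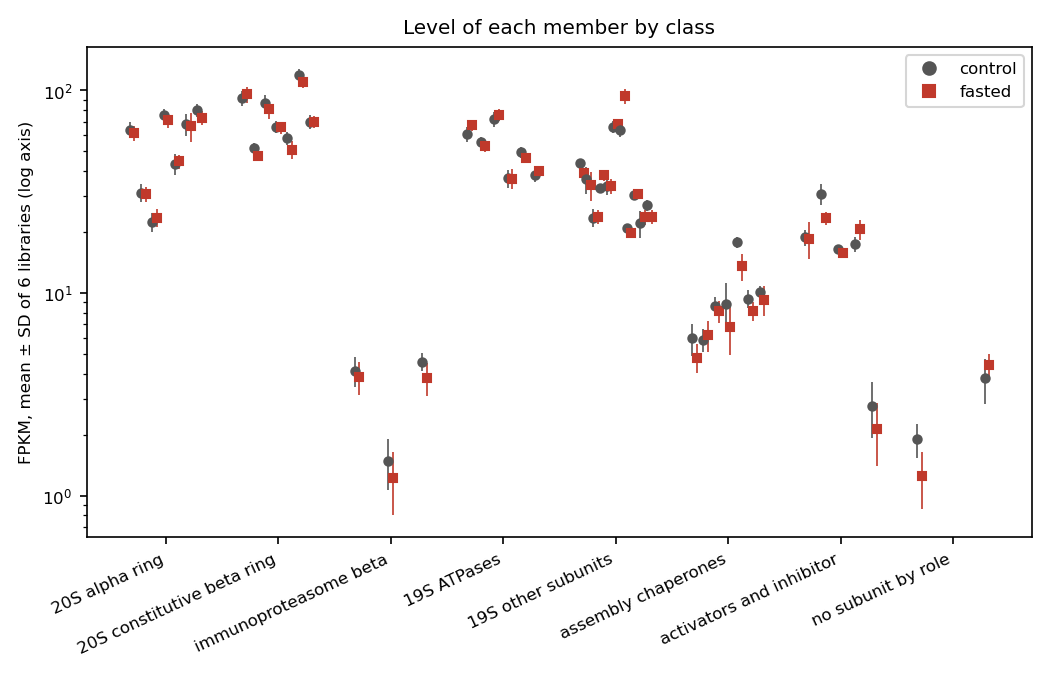
FPKM (log axis) of each of the 48 listed proteasome genes as mean ± SD of 6 libraries, control in grey circles and fasted in red squares, grouped by class. The constitutive core lies between about 23.02 and 115 FPKM, the immunoproteasome genes lie between 1.35 and 4.195 FPKM, and Psmd8 is the 19S gene with a visible gap between the groups.

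Most proteasome genes moved little, and a few single genes moved in opposite directions. Of the 48 genes, 9 passed an adjusted p of 0.05 (18.8%), where 31.7% of all genes tested passed. Psmd8, Psmd4 and Psme4 were higher in the fasted group, and Psme2, Psmg2, Psmd1, Psmc3ip, Psmd14 and Psmb2 were lower. Of all genes tested, 13.8% were higher and 17.9% lower. The log2 difference was within 0.2 of 0 in 38 of the 48 genes (79.2%), against 55.9% of all genes. Many of the 48 genes lie at high levels, and the share of all genes was not matched for level. The median log2 difference was -0.06 for the 48 genes and -0.02 for all genes. The groups did not overlap in 5 members (Psmd8, Psmd4, Psme2, Psmg2 and Psmd1), and in 17% of all genes. With median-of-ratios scaling 4 members were higher and 5 lower, and all genes split into 1973 higher and 1943 lower in place of 1667 and 2154. With the adipocyte marker level as a covariate, the calls fell from 9 to 2 members, Psmd8 and Psme2, and from 3821 to 2384 of all genes. That level, the mean log2(FPKM + 1) of the markers, was 2.39 to 3.56 in controls and 2.79 to 4.92 in fasted libraries. The covariate thus goes partly with the group, and a call lost with it does not tell fat from fasting.

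**Figure D2:**
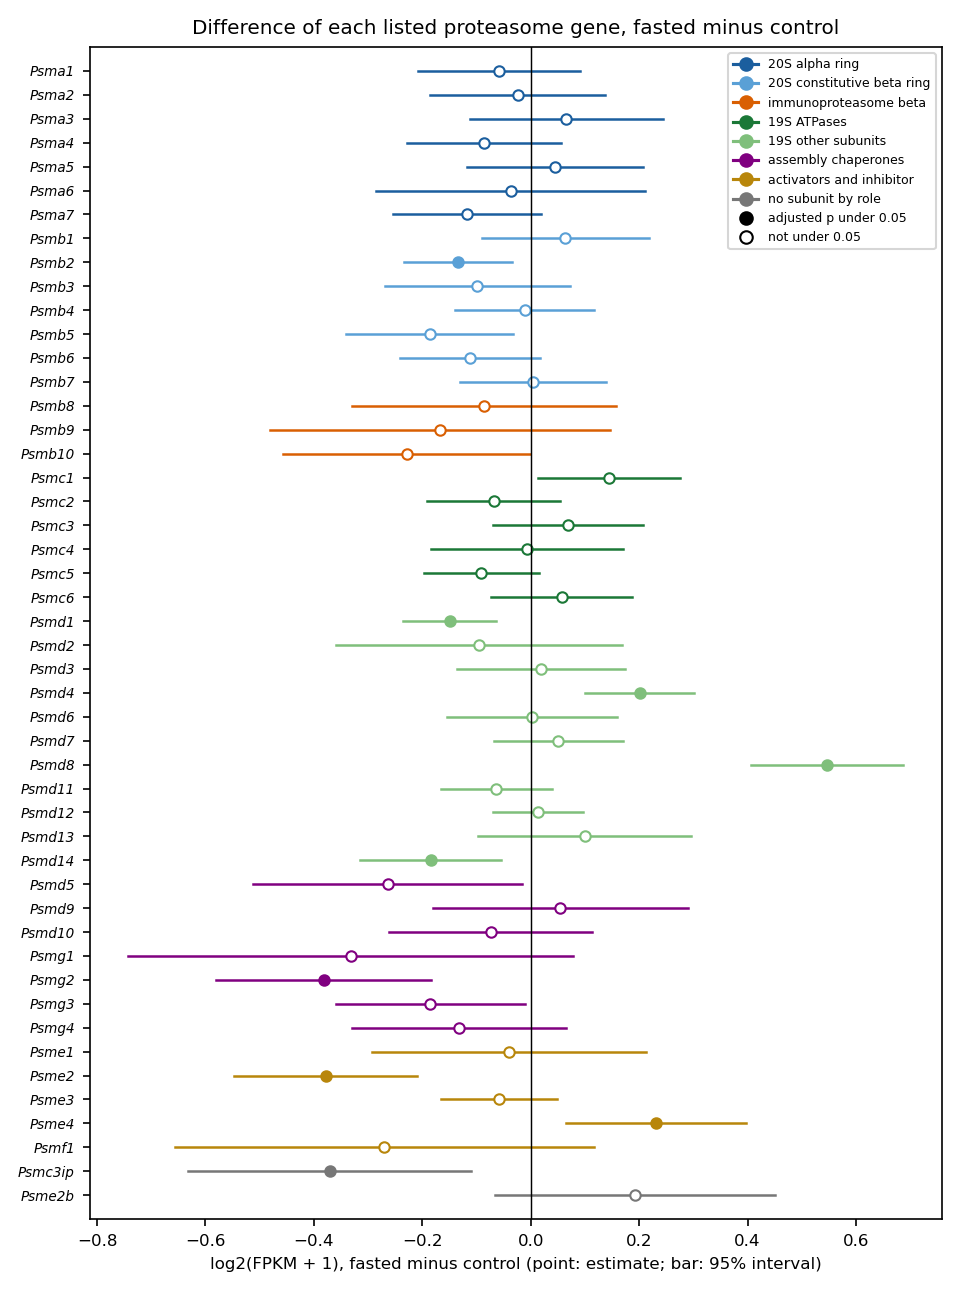
Log2 difference, fasted minus control, of each of the 48 listed genes on the log2(FPKM + 1) scale, with its 95% interval, coloured by class. Filled points passed an adjusted p of 0.05. The 14 genes of the constitutive core crowd around 0, and Psmd8, at 0.55, stands farthest to the right.

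Psmd8 showed the largest rise among the 48 genes. It encodes the lid subunit Rpn12 of the 19S particle (ENSMUSG00000030591, chromosome 7, 29174188 to 29180701, minus strand, GRCm38). Its level was 58.1 FPKM in the lowest, 62.7 in the median and 71.6 in the highest control library, and 82.96, 95.2 and 105 FPKM in the fasted ones. Every fasted library lay above every control. The mean rose 1.47-fold from 63.6 ± 4.73 to 93.4 ± 7.97 FPKM (log2 difference 0.55 ± 0.06, adjusted p = 6.17e-05). It kept its call in all 20 alternatives, among them the adipocyte covariate (0.66, adjusted p = 2.70e-04). The size moved with how transcripts were added up: 0.46 with transcripts weighted by length, and 1.05 with the most abundant transcript alone.

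Of the 4 listed transcripts of Psmd8, Psmd8-202 alone passed, higher in the fasted group. In Psmd8-202 the last intron is spliced out. That intron is at chr7:29174748-29175410 and has 663 bases. In Psmd8-207 it is retained and the reading frame ends 30 bases into it, so that the coding sequence is 762 bases long in place of 870. The sequences of the annotated transcripts at this point are shown because the values below depend on telling them apart. Both run 5′ to 3′ along the transcript, and capitals mark what follows the end of the shared exon.
Psmd8-202: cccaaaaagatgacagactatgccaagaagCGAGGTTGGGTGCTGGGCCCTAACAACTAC
Psmd8-207: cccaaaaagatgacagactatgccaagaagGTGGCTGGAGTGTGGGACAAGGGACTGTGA
Psmd8-202 was at 19.8, 33.3 and 42.8 FPKM in the lowest, median and highest control and at 41.1, 67.98 and 91.5 FPKM in the fasted libraries. The ranges overlap in the lowest fasted library, replicate 3, and the highest control. Its log2 difference was 1.05 ± 0.21 (adjusted p = 0.00533 over 20599 transcripts). The control with the lowest Psmd8-202, replicate 4, held the transcripts Psmd8-201 at 21.5 FPKM and Psmd8-203 at 9.61 FPKM. Control medians were 1.12 FPKM for Psmd8-201 and 1.25 FPKM for Psmd8-203. Psmd8-207 was at 20.7 to 26.4 FPKM in controls but spread from 4.14 to 35.4 FPKM among fasted libraries. Fasted replicates 1 and 2 had the lowest values of Psmd8-207 (4.14 and 4.17 FPKM) and the highest of Psmd8-202 (91.2 and 91.5 FPKM). Fasted replicate 3 had the highest Psmd8-207 (35.4 FPKM) with the lowest Psmd8-202 of its group. Psmd8-202 made up 52.2% ± 13.3 of the gene in controls and 74.3% ± 17.4 in fasted aortae, a shift in share that did not pass its test (adjusted p = 0.354 over 14107 shares).

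Psmd4, which encodes the ubiquitin receptor Rpn10, was the other 19S gene that rose. Its lowest, median and highest levels were 31.3, 33.0 and 34.3 FPKM in controls and 35.3, 38.03 and 42.3 FPKM in fasted libraries, without overlap. The mean rose 1.16-fold, with a log2 difference of 0.20 ± 0.05 (adjusted p = 0.0056). Its main transcript Psmd4-202 rose as well (0.18 ± 0.04, adjusted p = 0.0139). The gene lost its call with the adipocyte covariate at almost the same size (0.20, adjusted p = 0.0534). Adrm1, which encodes the further ubiquitin receptor Rpn13 and does not match the symbol rule, did not pass, with a log2 difference of 0.12 ± 0.06 (adjusted p = 0.116).

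Among the 11 non-ATPase 19S genes, 4 passed (36.4%, near the 31.7% of all genes), 2 in each direction. Psmd1, which encodes the scaffold subunit Rpn2, fell with little spread: 42.4, 43.7 and 44.9 FPKM in controls and 36.4, 39.6 and 41.3 FPKM in fasted libraries, the groups apart (log2 difference -0.15 ± 0.04, adjusted p = 0.0123). With the adipocyte covariate it was -0.10 (adjusted p = 0.206). Psmd14, the deubiquitinase Rpn11 that cuts the chain from the substrate, fell from 27.1 ± 1.71 to 23.8 ± 1.92 FPKM. Its groups overlap between 25.4 and 26.02 FPKM (log2 difference -0.18 ± 0.06, adjusted p = 0.033). Psmd14 lost its call with the adipocyte covariate (-0.09, adjusted p = 0.42), and when control replicate 1, 4 or 5 or fasted replicate 1 or 6 was left out (adjusted p 0.0562 to 0.0683). The other 7 genes of the class, which encode lid and base subunits, lay between -0.10 (Psmd2) and 0.10 (Psmd13). Psmd6 had a log2 difference of 0.00 (95% interval -0.16 to 0.16).

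Of the 6 ATPase genes none passed in limma, where 31.7% of all genes did, and 1 (Psmc1) had an unadjusted p under 0.05. Psmc1, which encodes Rpt2, was at 60.8 ± 5.16 FPKM in controls and 67.2 ± 3.94 in fasted aortae (log2 difference 0.14 ± 0.06, adjusted p = 0.0883). It passed with median-of-ratios scaling (0.17, adjusted p = 0.0373), without control replicate 4 (adjusted p = 0.0415) and without fasted replicate 1 (adjusted p = 0.0376). Psmc4 had a log2 difference of -0.01, with a 95% interval from -0.18 to 0.17. All 6 were within 0.2 of 0, from -0.09 for Psmc5 to 0.14 for Psmc1, against 55.9% of all genes.

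**Figure D3:**
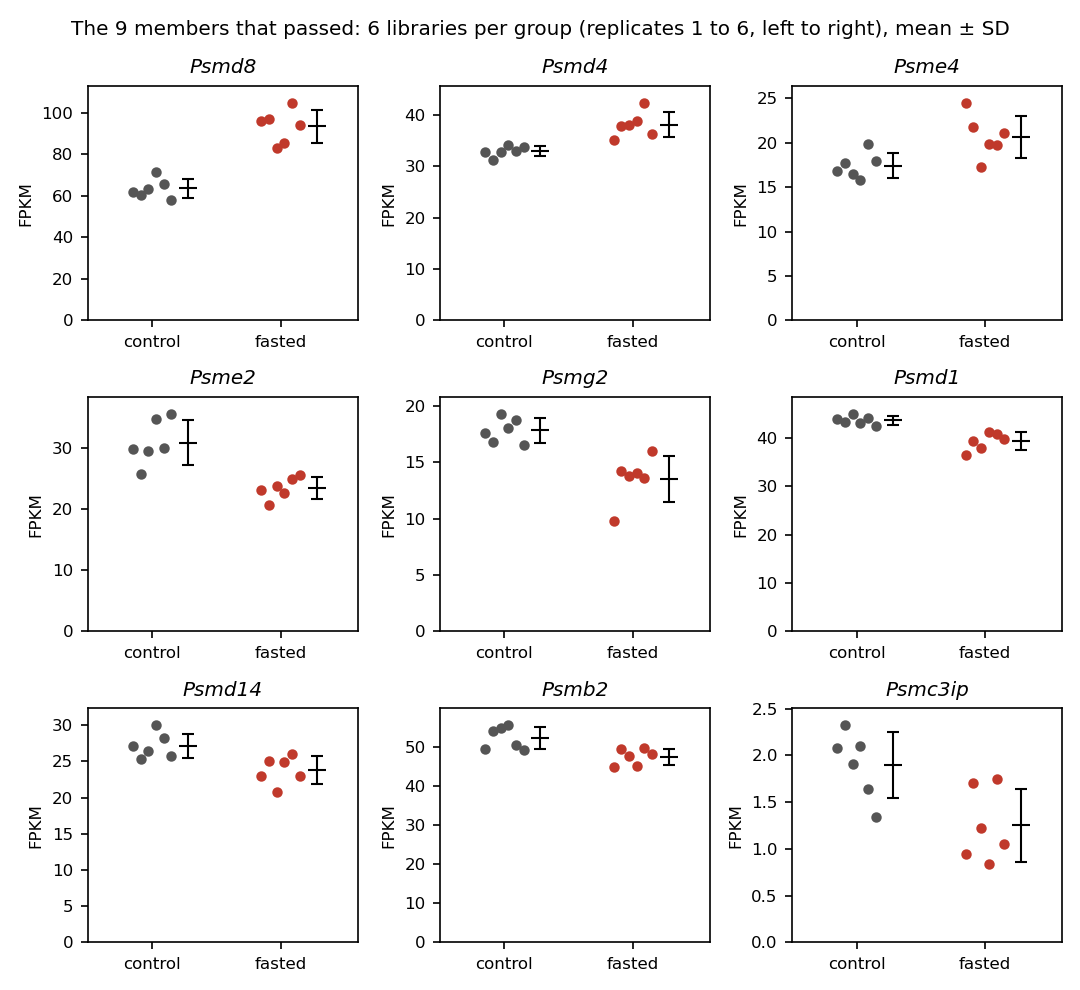
FPKM of the 9 genes that passed an adjusted p of 0.05 in each of 12 libraries (points, replicates 1 to 6 from left to right) with the mean ± SD of each group beside them, axes from 0. Psmd8, Psmd4, Psme2, Psmg2 and Psmd1 have groups that do not overlap, and Psmd14, Psmb2, Psme4 and Psmc3ip have groups that do.

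The constitutive 20S core held 1 gene that passed of 14, where 31.7% of all genes passed. Psmb2, a beta subunit without a catalytic site, was at 49.3, 52.2 and 55.5 FPKM in controls and at 44.8, 47.9 and 49.6 FPKM in fasted libraries. Its highest fasted library lay above its lowest control (log2 difference -0.13 ± 0.05, adjusted p = 0.0408). The settings that ended the call of Psmb2 included median-of-ratios scaling (-0.11, adjusted p = 0.105) and the adipocyte covariate (-0.09, adjusted p = 0.357), and it was also lost when control replicate 2, 3, 4 or 5 or fasted replicate 1, 4 or 6 was left out (adjusted p 0.0502 to 0.0852). All 14 core genes lay within 0.2 of 0 on the log2 scale, from -0.19 for Psmb5 to 0.07 for Psma3, against 55.9% of all genes. None of the 7 alpha genes passed in limma, and none had an unadjusted p under 0.05. Their 95% intervals ran at the widest from -0.29 to 0.21, for Psma6.

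The subunits that cut peptide bonds did not pass. Psmb5, the chymotrypsin-like subunit, was at 52.3, 57.5 and 63.6 FPKM in controls and at 42.7, 53.5 and 55.04 FPKM in fasted libraries (log2 difference -0.19 ± 0.07, adjusted p = 0.0632). The low value was that of fasted replicate 1. Without control replicate 6 or without fasted replicate 3 Psmb5 passed (adjusted p = 0.0443 and 0.0499). Psmb6 was at 119 ± 8.20 FPKM in controls and 110 ± 7.68 in fasted aortae (log2 difference -0.11 ± 0.06, adjusted p = 0.172). Psmb7, the trypsin-like subunit, was at 70.1 ± 5.87 and 70.2 ± 4.79 FPKM (log2 difference 0.00, 95% interval -0.13 to 0.14).

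Core genes shared their highest and lowest libraries. Control replicate 4 was the highest of all 12 libraries in 13 of the 14 core genes, and fasted replicate 1 was the lowest in 13 of 14. Psma6 was the exception in both. The 3 immunoproteasome genes were also all highest in control replicate 4 and lowest in fasted replicate 1. Of the 17 genes of the 19S particle, 5 were highest and 6 lowest in these libraries. Over all 48 members the counts were 23 and 25. Of all genes tested, 12.004% were highest in control replicate 4 and 16.3% lowest in fasted replicate 1. Without control replicate 4 the members' calls were 3 lower in place of 6, and the same number were lower without fasted replicate 1 and without fasted replicate 6. Fasted replicate 6 was itself the lowest library in 2 members and the highest in 0. Leaving out any 1 library gave 3 to 7 lower members, and 1878 to 2307 lower among all genes in place of 2154.

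**Figure D4:**
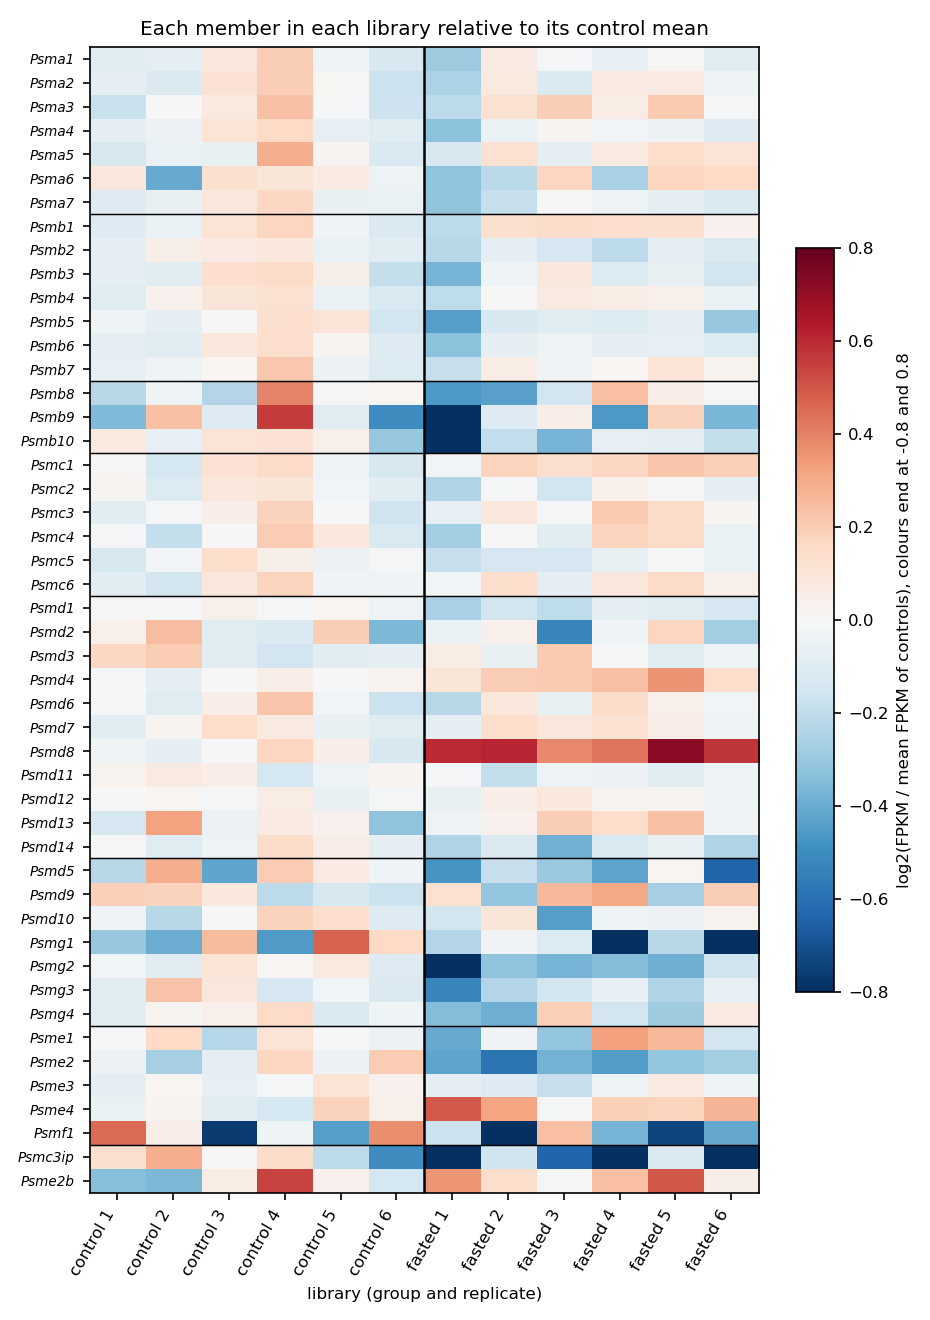
Each of the 48 genes (rows, by class) in each of 12 libraries (columns, controls left of the line), coloured by log2 of its FPKM over its mean in controls, with colours ending at -0.8 and 0.8. The core rows are red in control replicate 4 and blue in fasted replicate 1, and the Psmd8 row is red in all 6 fasted libraries.

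None of the 3 immunoproteasome genes passed in limma, where 31.7% of all genes did, and 1 (Psmb10) had an unadjusted p under 0.05. Psmb8 and Psmb9 lie on either side of the peptide transporter gene Tap1 on chromosome 17 (34197721 to 34201454 and 34181987 to 34187764), and Psmb10 lies on chromosome 8 (105935735 to 105938444). Psmb8 was at 3.53, 4.08 and 5.45 FPKM in controls and at 3.02, 3.93 and 4.90 FPKM in fasted libraries (log2 difference -0.09 ± 0.11, adjusted p = 0.598). Psmb9 was at 1.05, 1.38 and 2.18 FPKM in controls and at 0.505, 1.27 and 1.69 FPKM in fasted libraries (-0.17 ± 0.15, adjusted p = 0.413). Psmb9 shares 212 exon bases with Tap1 on the other strand, and the use of strand in counting is not stated in the sources at hand. Psmb10 was at 3.72, 4.78 and 4.96 FPKM in controls and at 2.50, 4.01 and 4.39 FPKM in fasted libraries (-0.23 ± 0.11, adjusted p = 0.117).

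The balance between each immunoproteasome subunit and the constitutive subunit it replaces was set within each library, where scaling drops out. Psmb8 was 7.15% ± 1.01 of Psmb5 in controls and 7.58% ± 1.26 in fasted aortae (exact two-sided permutation test, p = 0.541, adjusted over 3 ratios 0.541). Psmb9 was 1.24% ± 0.299 of Psmb6 in controls and 1.09% ± 0.334 in fasted aortae (exact permutation p = 0.455, adjusted 0.541). Psmb10 was 6.56% ± 0.581 of Psmb7 in controls and 5.38% ± 0.728 in fasted aortae (exact permutation p = 0.0108, adjusted 0.0325). The lowest, median and highest Psmb10 ratios were 5.73, 6.67 and 7.23% in controls and 4.06, 5.56 and 6.19% in fasted libraries, so the groups overlap. The Psmb10 ratio no longer passed when control replicate 1, 2, 3 or 5 or fasted replicate 1, 2, 3 or 6 was left out (adjusted exact permutation p 0.0519 to 0.0649). Immune cells carry immunoproteasome without interferon as well, and of the 9 macrophage and lymphocyte markers tested 1 passed, Adgre1, lower in the fasted group. Their part in these ratios was not tested.

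The activators split. Psme2, one of the PA28 subunits (ENSMUSG00000079197, chromosome 14, 55587441 to 55591113, minus strand), fell, from 25.7, 29.9 and 35.5 FPKM in controls to 20.6, 23.4 and 25.6 FPKM in fasted libraries. The groups did not overlap, though the margin was narrow. The log2 difference was -0.38 ± 0.08 (adjusted p = 0.00277), a 1.32-fold lower mean, and it passed in all 20 alternatives, with the adipocyte covariate at -0.43 (adjusted p = 0.0182). Its partner Psme1, at chromosome 14, 55578123 to 55581529, was at 18.8 ± 1.74 FPKM in controls and 18.5 ± 3.84 in fasted aortae (log2 difference -0.04, 95% interval -0.29 to 0.21). The difference between the changes of these partners was not tested. Psme4, which encodes the PA200 activator, rose, with 17.4 ± 1.42 FPKM in controls against 20.7 ± 2.39. Its groups overlap between 17.3 and 19.8 FPKM (log2 difference 0.23 ± 0.08, adjusted p = 0.036). Psme4 lost its call at a similar or larger size with the adipocyte covariate (0.29, adjusted p = 0.0759), with its most abundant transcript alone (0.22, adjusted p = 0.0696) and with length weights (0.22, adjusted p = 0.0524). The call was also lost when control replicate 1, 2, 3, 4 or 6 or fasted replicate 1, 2 or 6 was left out (0.18 to 0.24, adjusted p 0.0503 to 0.0733). Psme3, the nuclear PA28 gamma, was at 16.4 ± 0.786 and 15.7 ± 0.899 FPKM (adjusted p = 0.399). Psmf1, the inhibitor PI31, was at 2.78 ± 0.847 and 2.14 ± 0.728 FPKM (adjusted p = 0.274).

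Psme2 has a near-identical copy in the table, and reads may be split between them. Their coding sequences have 720 bases each and are 99.3% identical, with 5 differences. Counted from 1 at the A of the start codon, with the base of Psme2 first, these are C312T, A369G, C489T, C519T and C543T. Bases 424 to 543 are shown because they hold 3 of the 5, in capitals, and because reads from the coding sequence that miss all 5 cannot be assigned to either gene by sequence.
Psme2: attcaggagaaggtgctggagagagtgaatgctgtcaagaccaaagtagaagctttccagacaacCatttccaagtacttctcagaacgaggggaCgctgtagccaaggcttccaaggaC
Psme2b: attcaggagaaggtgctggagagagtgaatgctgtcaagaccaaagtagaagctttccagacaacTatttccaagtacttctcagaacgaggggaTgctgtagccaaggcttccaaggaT
Psme2b was at 3.80 ± 0.946 FPKM in controls and 4.43 ± 0.599 in fasted aortae and did not pass (log2 difference 0.19 ± 0.12, adjusted p = 0.245). It passed without control replicate 4 (0.29, adjusted p = 0.0406). Summed as 1 gene, Psme2 and Psme2b still passed (log2 difference -0.30, adjusted p = 0.0113).

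Of the 7 assembly chaperone genes, Psmg2 alone passed, where 31.7% of all genes did. Their estimates were below 0 in 6 of 7, against 6498 of 12063 for all genes. The median log2 difference was -0.19 for the 7 and -0.02 for all genes. Psmg2, which pairs with Psmg1 to gather alpha subunits into a ring, fell from 16.6, 17.8 and 19.3 FPKM in controls to 9.77, 13.9 and 15.97 FPKM in fasted libraries, without overlap. The log2 difference was -0.38 ± 0.09 (adjusted p = 0.00686), and -0.26 with the adipocyte covariate, which did not pass (adjusted p = 0.149). Psmg1 varied widely among controls, from 6.45 to 12.3 FPKM, and its difference of -0.33 ± 0.19 did not pass (adjusted p = 0.202). Psmg3 (-0.19 ± 0.08, adjusted p = 0.0985) and Psmg4 (-0.13 ± 0.09, adjusted p = 0.296), which form the other chaperone pair of the alpha ring, did not pass either. Of the chaperones of the 19S base, Psmd5 had a log2 difference of -0.26 ± 0.11 (adjusted p = 0.0982), and it passed without control replicate 3 (adjusted p = 0.0363). Psmd10 was at -0.07 and Psmd9 at 0.05. Pomp, the chaperone of the beta ring that does not match the symbol rule, fell from 38.8 ± 3.52 to 33.2 ± 1.80 FPKM without overlap (-0.22 ± 0.06, adjusted p = 0.0171).

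Psmc3ip, which encodes no proteasome subunit, fell, with 1.90 ± 0.355 FPKM in controls and 1.252 ± 0.389 in the fasted group (log2 difference -0.37 ± 0.12, adjusted p = 0.032). The log2 difference was -0.59 with a pseudocount of 0.1 (adjusted p = 0.0349). It lost its call with the adipocyte covariate (-0.23, adjusted p = 0.345), and when control replicate 1, 2, 3 or 4 or fasted replicate 1, 4 or 6 was left out (adjusted p 0.0543 to 0.0689). Its exons share 385 bases with Mlx on the other strand. Leaving it and Psme2b out, 8 of 46 genes passed (17.4%).

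Transcripts were tested one by one as well. Of 74 transcripts of proteasome genes tested, 6 passed, where 16.2% of all 20599 transcripts did. Of the 6, 3 were higher and 3 lower, against 7.19% and 8.98% of all transcripts. Besides Psmd8-202 and Psmd4-202, the transcript Psma6-204 was higher, and Psmd1-201, Psme2-208 and Psmg2-201 were lower. Psma6 encodes an alpha ring subunit whose gene sum did not change past the test, at 67.9 ± 8.56 FPKM in controls and 66.4 ± 10.9 in fasted aortae. Psma6-204 was at 0.777, 1.41 and 1.73 FPKM in controls and at 2.50, 3.57 and 4.73 FPKM in fasted libraries, every fasted library above every control. It rose by 0.97 ± 0.13 on the log2 scale (adjusted p = 4.21e-04). Psma6-201, which makes up the rest of the gene, was at 66.6 ± 8.72 and 62.8 ± 11.2 FPKM. The share of Psma6-204 was 2.04% ± 0.732 in controls and 5.59% ± 1.67 in fasted aortae. In limma none of 50 shares of proteasome transcripts passed, where 0.362% of all 14107 shares did. An unadjusted p under 0.05 was found for 8 shares, all of Psma3, Psma4, Psma6 or Psmd8. Shares of 1 gene depend on each other, and the rate of such p over all shares is not given here, so these 8 show no excess. The share of Psma6-204 had an adjusted p of 0.0641, and it passed when shares were tested only for genes with at least 5 FPKM, and without fasted replicate 3. In each case 2 shares passed, both of Psma6, which are 1 measurement.

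Psma6-204 begins at another first exon, at chr12:55384222-55384327. Its start lies 14553 bases upstream of the start of the first exon of Psma6-201 (chr12:55398775-55398991). Both join the same second exon. The coding sequence of Psma6-201 has 76 bases in its first exon and that of Psma6-204 has 19, so the encoded N termini differ. The coding starts are printed from the start codon, with the first exon in capitals and 20 bases of the shared second exon in lower case.
Psma6-201: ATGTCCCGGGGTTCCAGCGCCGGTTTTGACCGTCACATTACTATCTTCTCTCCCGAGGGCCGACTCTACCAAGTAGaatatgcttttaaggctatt
Psma6-204: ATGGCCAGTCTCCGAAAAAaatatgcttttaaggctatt

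**Figure D5:**
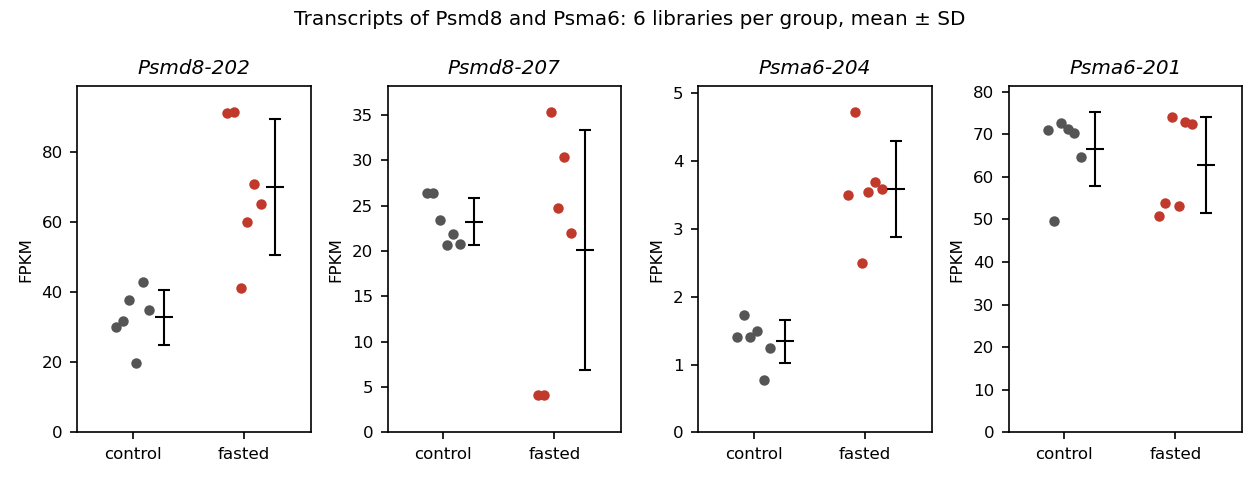
FPKM of 4 transcripts in each of 12 libraries (points) with the mean ± SD of each group, axes from 0: Psmd8-202 with the last intron spliced, Psmd8-207 with it retained, Psma6-204 from the upstream first exon and Psma6-201. Psma6-204 is at 2.50 FPKM or more in every fasted library and at 1.73 or less in every control, and Psmd8-207 spreads from 4.14 to 35.4 FPKM among fasted libraries.

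The sequences around annotated starts are shown for Psmd8, the gene that rose most, and for both starts of Psma6. RefSeq and GENCODE starts can differ. The downstream Psma6 window takes in the GENCODE start of Psma6-201 at chr12:55398775 and more than 50 bases of that first exon. They come from RefSeq on GRCm38.p6, 250 bases before and 50 after each annotated start, 5′ to 3′ on the gene's strand. Capitals mark matches, on either strand, to TGANNNNGC, the core of the antioxidant response element that Nrf1 and Nrf2 bind with small Maf proteins, and to ATTGG, the inverted CCAAT box bound by NF-Y. No core of the interferon-stimulated response element, TTTC and TTTC parted by 2 bases, lies in these windows.
Psmd8, chr7:29180624-29180923, minus strand: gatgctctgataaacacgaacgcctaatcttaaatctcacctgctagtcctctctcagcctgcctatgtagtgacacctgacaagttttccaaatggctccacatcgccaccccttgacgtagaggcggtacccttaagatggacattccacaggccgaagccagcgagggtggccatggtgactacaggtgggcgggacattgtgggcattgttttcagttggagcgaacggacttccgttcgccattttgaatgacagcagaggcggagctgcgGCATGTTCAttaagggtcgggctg
Psma6 upstream start, chr12:55383972-55384271, plus strand: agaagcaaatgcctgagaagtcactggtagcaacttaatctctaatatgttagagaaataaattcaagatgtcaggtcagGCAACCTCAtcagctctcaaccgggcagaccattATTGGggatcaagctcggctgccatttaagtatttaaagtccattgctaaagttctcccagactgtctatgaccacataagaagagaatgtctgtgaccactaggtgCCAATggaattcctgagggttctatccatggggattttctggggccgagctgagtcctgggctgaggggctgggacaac
Psma6 downstream start, chr12:55398575-55398874, plus strand: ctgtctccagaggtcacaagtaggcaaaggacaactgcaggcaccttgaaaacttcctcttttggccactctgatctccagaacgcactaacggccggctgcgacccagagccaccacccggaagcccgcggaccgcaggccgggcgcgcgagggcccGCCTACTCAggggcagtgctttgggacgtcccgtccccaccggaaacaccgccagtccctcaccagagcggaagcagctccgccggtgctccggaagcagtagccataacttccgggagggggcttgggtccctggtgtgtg
Of the 48 genes, 41 had a window, 44 windows in all. TGANNNNGC lay in 25 of the 44 (56.8%) and in 41.3% of all 32851 windows. The stricter TGACTCAGC, every match of which also matches TGANNNNGC, lay in 0 of 44 and in 0.454% of all. ATTGG lay in 14 (31.8%) against 37.4% of all, and the interferon element core in 5 (11.4%), among them Psmd4 and Psme1, against 3.44%. These are descriptions of letters, and no binding was measured.

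In the lists of genes that act with the proteasome, the share that passed lay near the 31.7% of all genes, so the counts set none of the lists apart. Of the 11 proteasome-associated genes tested, 2 rose and 2 fell (36.4% passed). Uchl5, a deubiquitinase of the 19S particle, rose from 7.27 ± 0.830 to 8.70 ± 0.696 FPKM (adjusted p = 0.0308). Ecpas, a scaffold that binds the proteasome, rose without overlap from 13.9 ± 0.479 to 15.8 ± 0.723 FPKM (adjusted p = 0.00989). Besides Pomp, the ubiquitin ligase gene Ube3c fell. Of 6 genes for ubiquitin and its activating enzymes, 2 fell (33.3% passed): Uba1 from 55.7 ± 1.69 to 48.7 ± 2.95 FPKM (adjusted p = 0.00653), and Uba6 from 4.39 ± 0.561 to 3.27 ± 0.597 FPKM (adjusted p = 0.025). Ubb, a polyubiquitin gene, was at 342 ± 13.3 and 373 ± 24.8 FPKM (adjusted p = 0.0904).

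Of 13 genes for shuttles and cofactors of the VCP segregase, 2 rose and 2 fell (30.8% passed, against 31.7% of all genes). The VCP cofactors Ubxn1 (log2 difference 0.27 ± 0.04, adjusted p = 5.90e-04) and Nploc4 (0.23 ± 0.05, adjusted p = 0.00553) rose. Vcp itself and the cofactor gene Faf2 (-0.18 ± 0.04, adjusted p = 0.00581) fell, Vcp from 108 ± 2.61 to 97.9 ± 3.63 FPKM.

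Of the 10 regulators of proteasome genes tested, 3 rose (30%), where 13.8% of all genes were higher and 31.7% passed in either direction. Maff and Mafk encode small Maf proteins that pair with Nrf1 and Nrf2. Maff rose from 9.05 ± 0.741 to 16.9 ± 3.47 FPKM, every fasted library above every control (log2 difference 0.81 ± 0.11, adjusted p = 1.44e-04) and Mafk from 35.4 ± 2.40 to 44.6 ± 5.68 FPKM (adjusted p = 0.00767). Ddi2, the protease that activates Nrf1, rose from 11.8 ± 0.948 to 14.5 ± 1.13 FPKM (adjusted p = 0.00624). Nfe2l1, which encodes Nrf1, was at 16.5 ± 1.70 and 13.97 ± 1.91 FPKM and did not pass (log2 difference -0.23 ± 0.09, adjusted p = 0.0743). Nfe2l2, which encodes Nrf2, was at 37.3 ± 0.957 and 37.1 ± 4.30 FPKM (adjusted p = 0.889).

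Of 7 listed ubiquitin ligases of the atrophy programme, 1 rose and 1 fell (28.6% passed, against 31.7% of all genes). Fbxo31 rose from 11.5 ± 1.32 to 25.7 ± 2.69 FPKM, without overlap (log2 difference 1.10 ± 0.08, adjusted p = 1.79e-06). Fbxo30 fell from 67.2 ± 9.69 to 45.6 ± 15.2 FPKM with overlapping groups (-0.61 ± 0.20, adjusted p = 0.0367). Fbxo32, the atrogin-1 ligase, was at 31.3 ± 4.67 and 38.8 ± 7.88 FPKM and did not pass (0.29 ± 0.14, adjusted p = 0.125). Trim63 was not in the table and was not analysed here.

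Of 11 tested genes for peptide loading on MHC class I and its interferon regulators, which use peptides that the proteasome makes, 4 fell (36.4%), where 17.9% of all genes were lower and 31.7% passed in either direction. The 3 with the smallest p were the chaperone genes Calr (-1.23 ± 0.06), Pdia3 (-0.78 ± 0.06, adjusted p = 1.88e-06) and Canx, which fell from 107 ± 4.71 to 75.9 ± 7.10 FPKM (-0.50 ± 0.06, adjusted p = 9.63e-05). These 3 also serve protein folding in the endoplasmic reticulum at large. The other gene of the list that fell was Erap1 (-0.34 ± 0.09, adjusted p = 0.0101), without overlap of the groups. Tap1, the transporter gene beside Psmb9, was at 0.746 ± 0.301 and 0.675 ± 0.301 FPKM (adjusted p = 0.759).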

How the data were processed

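Per the labels' protocols, poly(A) RNA of dissected mouse aortae was made into strand-specific libraries and read from both ends on a NovaSeq. Per the submitters' processing notes, the tools were FastQC, cutadapt, StringTie and HISAT2, on GRCm38. No version, setting or use of strand is given in the labels. The authors deposited FPKM per transcript, 22699 transcripts by 12 libraries. No transcript in the table has a mean under 0.5 FPKM in both groups. Low values showed no steps of whole reads, so depth is unknown and no counting interval was computed.

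Transcripts were assigned to genes with GENCODE M21 (GRCm38), 21493 by full identifier, 1162 by another version and 44 not at all, and FPKM was summed per gene. StringTie divides reads among transcripts by estimation, which can move FPKM between isoforms, near-identical copies and overlapping genes. Of the 48 genes, 10 have a copy of at least 95% identity over 150 bases elsewhere (BLAST 2.17.0), of which only Psme2 and Psme2b are in the table. In 7, exons overlap another gene in the table.

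Genes reaching 0.5 FPKM in 6 or more libraries entered limma 3.58.1 in R 4.3.3 on log2(FPKM + 1) (lmFit, eBayes with trend), two-sided, with Benjamini-Hochberg adjustment over all genes and a threshold of 0.05. Fold changes on that scale understate the change of low genes. Transcripts were tested alike, and shares of transcripts after an arcsine square root, where the gene reached 1 FPKM in all 12 libraries. Ratios were tested by exact permutation of 6 against 6 libraries (924 splits, smallest p 0.00216). The fitting code was tested on simulated data. No 2 libraries were copies: in the 66 pairs, 2.31% to 6.98% of genes differed by under 1%.

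The members, gene lists and tests were chosen with earlier results of these data known. A few genes of the further lists are not reported here and are left out of the lists' counts. Named are the 12 members with the smallest p, the 3 with the largest, catalytic, immunoproteasome, activator and chaperone genes with Psmd4, Psmd14 and Psmc4 whatever their result, up to 3 genes of each further list by smallest p, and Nfe2l1, Pomp, Adrm1 and Fbxo32. Other genes, lists' remaining calls and the transcripts of Psmd8 and Psma6 were named after their values were seen. Alternatives were another pseudocount, no filter, median-of-ratios scaling, the most abundant transcript, a replicate block, marker covariates, leaving out each library, and, added after seeing the data, length weights and the sum of Psme2 and Psme2b.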

Additional observations from a re-analysis of the deposited data

Results flagged for a closer look

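In 112 groups of 6 libraries examined for a sample far from the others, 5 held one, where chance gives about 1 in 20. In control replicate 4, Psmb7 was at 81.4 FPKM, with a group median of 68.2 FPKM. The same library held Psmb8 at 5.45 FPKM, with a group median of 4.08 FPKM. In fasted replicate 1, Psmb6 was at 94.8 FPKM, with a group median of 112.7 FPKM. Canx was at 62.6 FPKM in fasted replicate 3, with a group median of 76.9 FPKM, and all 6 fasted libraries still lay below every control. The transcript Psma6-201 was at 49.7 FPKM in control replicate 2, with a group median of 70.6 FPKM. These cases were not tested further.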

How the results depend on the processing

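With the adipocyte covariate, calls went from 3821 to 2384 genes (from 2154 to 1266 lower) and from 9 to 2 proteasome genes (1 higher and 1 lower). That covariate goes partly with the group, so a lost call does not tell fat from fasting. Leaving out 1 library at a time gave 3331 to 4168 called genes (1408 to 1861 higher, 1878 to 2307 lower), 5 to 10 called proteasome genes (2 to 4 higher, 3 to 7 lower), 2692 to 3542 called transcripts (1180 to 1616 higher, 1476 to 1926 lower) and 5 to 8 called proteasome transcripts (3 to 4 higher, 2 to 5 lower). The 5 proteasome genes were left without fasted replicate 6. Called shares of proteasome transcripts numbered 0 to 2, and 2 with a gene minimum of 5 FPKM. These 2 are the complementary shares of Psma6 and are 1 measurement. The log2 difference of the Psmb10 to Psmb7 ratio ran from -0.34 to -0.21 when 1 library was left out, that of Psmb8 to Psmb5 from 0.02 to 0.15 and that of Psmb9 to Psmb6 from -0.32 to -0.02.

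Same-numbered libraries did not deviate together (correlations -0.00634 to 0.0845). Only control replicates 3 and 5 correlated best with the fasted library of their own number, so the numbers were not taken as pairs. With the replicate block, 9 proteasome genes passed as before, with Psmb5 gained (adjusted p = 0.0339) and Psmb2 lost (adjusted p = 0.0684). With that block 4 proteasome transcripts passed, 1 of them lower, and the Psmb10 to Psmb7 ratio (-0.29) had an adjusted exact p of 0.188. That blocked test has 64 sign patterns and a smallest p of 0.0312, or 0.0938 after adjustment where 1 ratio alone reaches it, so here it could not have passed. Of the alternatives for single genes and transcripts, 526 kept a call, 71 lost one, 416 stayed without one and 16 gained one, and no called value changed sign. Another pseudocount, no filter, the immune covariate and length weights left each count of called genes within 1.5 times. Depth is unknown, so it is not known how far it limits the low genes, such as Psmb9.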
